A study of Mus musculus with 13 samples.

Results

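Basal myoepithelial cells were picked out of single-cell RNA sequencing libraries that had been sorted for mammary fibroblasts, so they are a minor population left in those sorts. A barcode was counted as basal when at least 2 of the keratin genes Krt14, Krt5 and Krt17 were detected with 3 or more UMIs in sum (a UMI, unique molecular identifier, marks 1 captured RNA molecule). Its UMIs of the luminal keratins Krt8 and Krt18 together had to stay below those of Krt14 and Krt5. The fibroblast proteoglycan gene Dcn could reach at most 10 per 10000 UMIs, and no UMI of the fibroblast receptor gene Pdgfra was allowed. Of 111246 barcodes with 500 to 7500 genes and at most 10% mitochondrial UMIs, 1106 met the rule. The rule removed most candidates at its Dcn limit, since 1751 barcodes passed the keratin conditions, 1182 of these the Dcn limit and 1106 the Pdgfra condition. The members were thus chosen by the values of these genes, which are given as a description without a test.

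The 13 libraries came from female mice. The 5 stage libraries and the 4 hormone libraries were prepared from wildtype C57BL/6 glands, as stromal cells sorted as negative for lineage markers and for CD24, with 2 females per stage and, by the study's methods, 2 per hormone library. Stages were puberty (4 weeks), adult virgin (9 weeks), pregnancy day 14.5, lactation day 10 and involution day 4, with 1 library each. Placebo or MPA+E, pellets of the progestin medroxyprogesterone acetate with estradiol, had been implanted under the skin a week before collection, with 2 libraries per arm at 9 weeks. The 4 raGFP-Wnt1 libraries came from mice of genotype Pdgfra-GFP KI/+ MMTV-Wnt1 T/+ on a mixed C57BL/6 and FVB background. This transgene drives Wnt1 from the mouse mammary tumour virus promoter, which is active in mammary epithelium, and a fluorescent reporter stands in the Pdgfra locus. Hyperplastic gland and tumour of each of 2 such mice were sorted for GFP-positive cells, at 45 weeks (hyperplasia 1 and tumour 1) and 17 weeks (hyperplasia 2 and tumour 2). Both sorts were set for stromal cells, so the members are basal cells that passed a gate meant for others, and their number in the gland and their passage through the gate cannot be told apart. Strain, age and sort differ together between wild-type and raGFP-Wnt1 libraries and cannot be told apart from the transgene.

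In the mammary gland, basal myoepithelial cells form the outer layer of ducts and alveoli. They rest on a basement membrane that they help to build, they are marked by Krt14, Krt5 and the transcription factor p63 (gene Trp63), and they carry a contractile apparatus much like that of smooth muscle. Oxytocin, bound by the receptor encoded by Oxtr, makes them contract around the milk-producing luminal cells during lactation. Many smooth muscle genes are switched on by serum response factor with its partner myocardin. Serum response factor binds a DNA element called the CArG box.

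The members carried the genes of their label. Acta2 (chr19:34241090-34255590, minus strand, GENCODE M21 on GRCm38), the smooth muscle actin gene, which the rule did not use, was detected in 96.0% of the 1106 members, and in 77.5% to 100% of the members of each library. Trp63 was detected in 24.8% to 82.4%. The summed level of 9 basal markers that the rule did not use was 2640 to 24681 CPM (UMIs per 1000000 UMIs, summed over the members of a library), against 57.9 to 587 CPM in the fibroblasts of the same libraries. Fibroblasts were taken as kept barcodes with Pdgfra, with Dcn above the limit and without UMIs of the 3 keratins, so those keratins are at 0 in them by choice. Among all barcodes with Pdgfra and Dcn above the limit, whatever their keratins, an Acta2 UMI was present in 0.405% to 27.9% in 12 libraries and in 63.5% in tumour 2. Without the genes of the rule, 14 luminal markers summed to 296 to 857 CPM in the members and 26.5 to 163 CPM in fibroblasts. Likewise, 8 fibroblast markers summed to 267 to 1227 CPM in the members, against 30705 CPM or more in the fibroblasts themselves. The 11 hair follicle markers, Krt15 among them, summed to 218 to 1436 CPM in the members, against 22.7 to 63.7 CPM in fibroblasts. Endothelial markers reached at most 55.1 CPM and pericyte markers 79.1 CPM. Immune markers stayed at or below 22.2 CPM in 11 libraries, reached 95.7 CPM in involution and stood at 1906 CPM in lactation, where 1 of 9 members held them. Barcodes just inside the keratin threshold (3 UMIs, 16 barcodes) had Acta2 in 81.25% and those just outside it (2 UMIs, 10 barcodes) in 90%.

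Depth behind the members differed between libraries. Libraries held 56551189 to 112550204 UMIs over all barcodes, the members together 27699 UMIs in puberty to 2496970 UMIs in pregnancy, and the median member 2935 UMIs in lactation to 13593 in MPA+E 1. Puberty, lactation, involution and hyperplasia 1 had 7, 9, 5 and 4 members, so their levels are shown but entered no fit but the alternatives that used every library. Libraries shared 5 to 51 cell barcodes per pair, at most 0.539% of the smaller library, and no barcode was a member in more than 1 library.

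Pregnancy held the largest share of basal cells. They made up 4.41% of the kept barcodes in pregnancy (584 of 13257, 95% exact binomial interval 4.06% to 4.77%). In the adult virgin gland they made up 0.210% (0.139% to 0.306%), in puberty 0.0832%, in lactation 0.101% and in involution 0.0461%. The interval of pregnancy lay above those of the other 4 stages, of which the adult reached highest. Intervals here cover counting error only, and with 1 library per stage the difference has no replicate check. Thinned to 2000 UMIs per barcode, the shares were 4.37% in pregnancy and 0.183% in the adult. Among the same barcodes with Pdgfra and Dcn above the limit, whatever their keratins, a Krt14 UMI was present in 3.99% of those in pregnancy (median 4332 UMIs) and in 0.239% of those in the adult (median 6219 UMIs).

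Placebo 1 held 0.263% and placebo 2 held 1.71% basal cells. With only the members that had Acta2, the share in placebo 2 was 1.32%. MPA+E 1 held 0.292% and MPA+E 2 held 0.569%. Both MPA+E libraries lay between the placebo libraries, and the mean shares, 0.430% ± 0.196 (SD, n = 2) and 0.986% ± 1.02 (SD, n = 2), differed by less than the spread between the placebo libraries (exact permutation test, two-sided, p = 1.0, where 0.33 is the smallest p that 2 against 2 allows). Without placebo 2 the difference, MPA+E minus placebo, turned from -0.556 to 0.168 percentage points. Hyperplasia 1 and 2 held 0.0610% and 0.579%, and tumour 1 and 2 held 0.219% and 4.17%. In each mouse the tumour was above its own hyperplastic gland, by 0.158 and 3.59 percentage points, and the exact permutation test over libraries gave p = 0.667. Within mice, the exact permutation of signs gave p = 0.5, the smallest that 2 pairs allow. Tumour 2 carried that difference, which without it was -0.101 points. Across all libraries the raGFP-Wnt1 share of 1.26% ± 1.96 (SD, n = 4) and the wild-type share of 0.853% ± 1.43 (SD, n = 9) overlapped (exact permutation p = 0.727, where 4 libraries stand for 2 mice), and without tumour 2 the difference turned from 0.405 to -0.567 points. The plot of shares shows that pregnancy, tumour 2 and placebo 2 are the libraries with many basal cells.

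**Figure D1:**
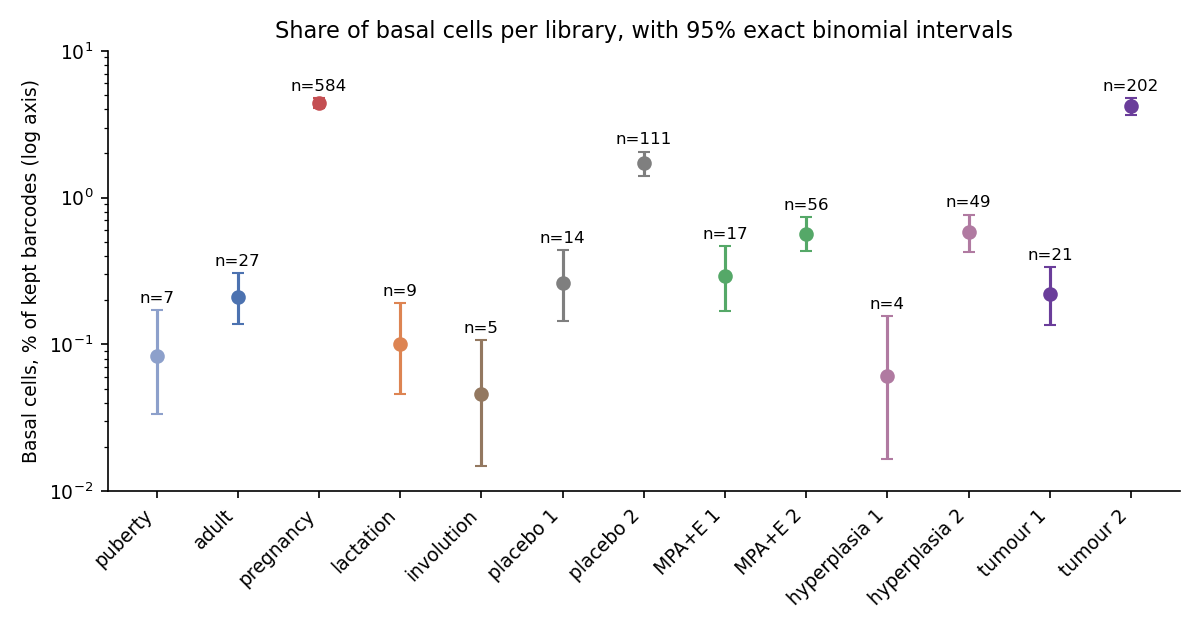
Basal cells as a percentage of kept barcodes (log axis) in each of the 13 libraries, with 95% exact binomial intervals and the number of members. Pregnancy (4.41%), tumour 2 (4.17%) and placebo 2 (1.71%) stand above the other 10 libraries, which lie between 0.0461% and 0.579%.

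Placebo 2 held a second kind of member, and results that rest on it are given without these cells or without the library. Of its 111 members, 25 had no Acta2 UMI at a median depth of 12524 UMIs, close to the 11885 of the 86 with Acta2. These 25 cells had 10888 CPM of Krt14 against 2766 CPM in the 86 others, 2573 against 658 CPM of Krt5, 2037 against 220 CPM of Krt15, and 360 against 89.5 CPM of Trp63. They held more RNA of these keratins and of Trp63 than the members with Acta2. Contractile genes were missing along with Acta2, which had been used to split them: Tagln, Cnn1, Mylk and Oxtr had no UMI and Myh11 stood at 3.08 CPM, against 4634, 698, 634, 108 and 989 CPM in the others. Krt17, one of the 3 keratins of the rule, was at 21.5 CPM against 1103 CPM.

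The same 25 cells held epidermal genes. Dmkn, the gene of the secreted epidermal protein dermokine, stood at 1416 CPM, Calm4, a calmodulin-like gene of skin, at 652 CPM, and Lgals7, galectin-7 of stratified epithelia, at 4416 CPM. Sfn, the epithelial 14-3-3 sigma, reached 12072 CPM, and Il1r2, the decoy receptor for interleukin 1, 634 CPM. The 86 placebo 2 members with Acta2 had 60.8 CPM of Dmkn, 40.8 CPM of Calm4 and 36.5 CPM of Il1r2. They held 1285 CPM of Lgals7 and 2069 CPM of Sfn, so these 2 genes were abundant in both kinds of members. Late differentiation genes were low in the 25 cells, with Krt10 at 27.7, Krtdap at 46.2, Krt1 at 9.23 and Lor at 6.15 CPM. Over the 12 skin keratinocyte markers, the sum in placebo 2 was 596 CPM, while the other 12 libraries lay between 0 and 89.3 CPM, with 2 of the markers at 0 in all libraries. Fibroblasts had 94.1 to 442 CPM of these markers. In tumour 2, where 13 members lacked Acta2, Dmkn and Calm4 had no UMI in those members, while Krt79 was at 213 CPM against 37.5 CPM in the rest, Ly6d at 255 against 9.38 CPM and Lgals7 at 1799 against 901 CPM, and Krt14 was at 1593 CPM against 1438 CPM in the rest. In 10 of the 13 libraries every member had Acta2. The plot of the placebo members shows the 2 kinds of cells of placebo 2 beside those of placebo 1.

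**Figure D2:**
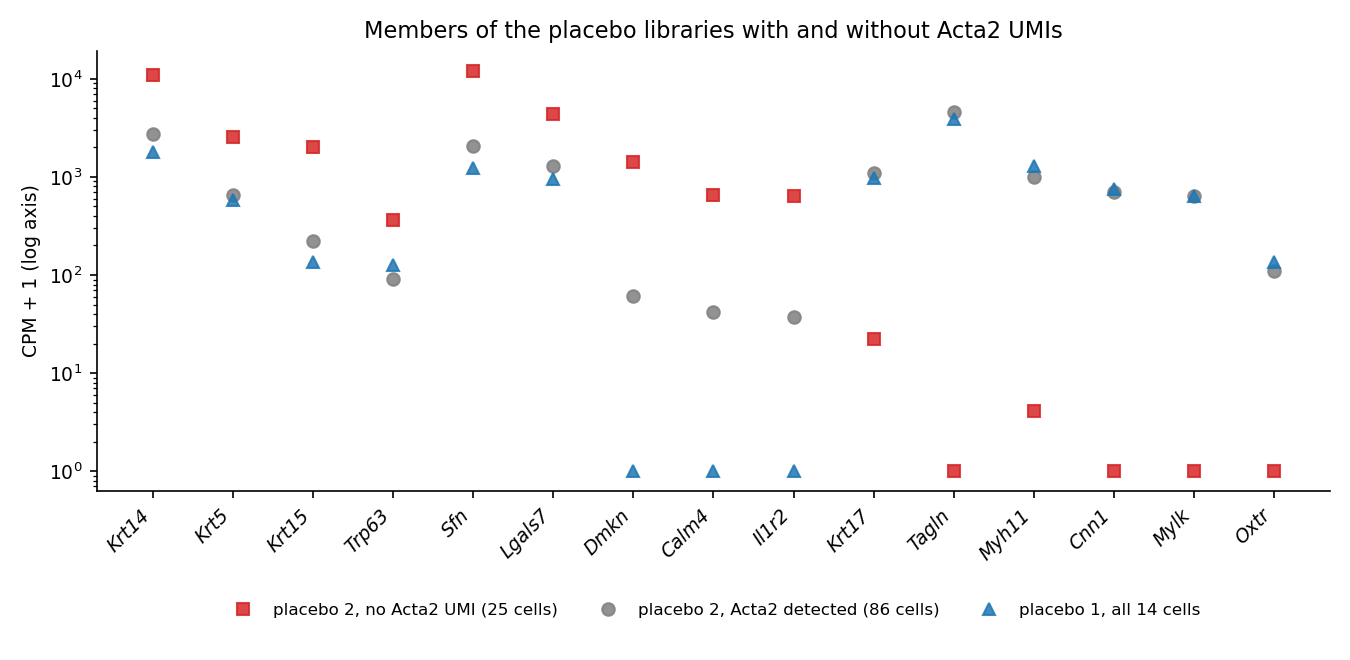
CPM + 1 (log axis) of 15 genes in the 25 placebo 2 members without an Acta2 UMI (squares), the 86 placebo 2 members with Acta2 (circles) and all 14 placebo 1 members (triangles). The cells without Acta2 are highest for Krt14, Krt5, Krt15, Sfn, Dmkn, Calm4 and Il1r2 and at or near the bottom for Krt17, Tagln, Myh11, Cnn1, Mylk and Oxtr.

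Contractile genes set the raGFP-Wnt1 libraries apart from all others. Acta2 was at 1505 and 2201 CPM in hyperplasia 1 and 2 and at 3265 and 3296 CPM in tumour 1 and 2. In the wild-type libraries it ranged from 4986 CPM in placebo 2 through a median of 8074 CPM to 18644 CPM in pregnancy, so the groups did not overlap. With only the members that had Acta2, placebo 2 was at 6394 CPM. Cnn1, calponin, was at 247, 165, 263 and 256 CPM in hyperplasia 1, hyperplasia 2, tumour 1 and tumour 2, and between 500 and 2741 CPM (median 952) in the wild-type libraries. Myh11, the smooth muscle myosin heavy chain, was at 395, 331, 507 and 295 CPM against 772 to 3158 CPM (median 1304). Tagln, which encodes the actin-binding protein transgelin, was at 321, 1070, 851 and 2317 CPM against 2609 to 8159 CPM (median 4532). In these 4 genes each raGFP-Wnt1 library, including the one of 4 cells, lay under the lowest wild-type library.

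Of the 19 contractile genes with enough counts, 10 had all 4 raGFP-Wnt1 libraries below all 9 wild-type libraries, where 0.685% of the 7592 genes tested did so. They were Acta2, Actg2, Myh11, Mylk, Cnn1, Tagln, Tpm2, Cald1, Myl6 and Actn1, which encode actins, myosin chains and their kinase, tropomyosin and actin-binding proteins. Myocd, the gene of myocardin, was the only one of the 19 with all 4 above, as 0.369% of genes did, at 24.7, 42.2, 7.88 and 23.0 CPM against 0 to 4.06 CPM, and it did not pass the test (adjusted p = 0.326). In hyperplasia 1 this was 1 UMI, wild-type libraries at 0 allow up to 108 CPM (3 counts, in puberty), and thinned to 2000 UMIs per barcode the groups overlapped. Over the 3 raGFP-Wnt1 and 6 wild-type libraries with at least 10 members, 11 of the 19 lay below, as 2.91% of all genes did. Under other choices of members the count was 8 to 11.

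A fit over the 9 libraries with at least 10 members compared hyperplasia 2, tumour 1 and tumour 2 with adult, placebo 1 and placebo 2 as virgin glands, a design chosen after the data were seen. In edgeR's quasi-likelihood test with Benjamini-Hochberg adjustment, 9 of 7592 genes were higher (0.119%) and 9 lower (0.119%). Cnn1 fell by 1.63 on the log2 scale (SE 0.28, adjusted p = 0.0362). Palld, which encodes the actin-bundling protein palladin and stood outside the list, fell by 1.63 (SE 0.27, adjusted p = 0.0328), from 587 to 943 CPM in the virgin libraries to 198, 236 and 232 CPM. Of the 19 contractile genes tested, 18 had a negative log2 fold change and Cnn1 alone passed. The list's median was -0.90, against 0.04 over all genes. Myh11 (log2 -1.35, adjusted p = 0.0652), Tpm2 (-1.24, 0.0673) and Acta2 (-1.18, 0.0918) missed the threshold. All of these kept their sign under each of 17 alternatives, and Cnn1 and Palld passed in 10 and 9 of them. Neither passed in the fits that left out the adult, placebo 2 or tumour 2, where no gene was called lower.

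**Figure D3:**
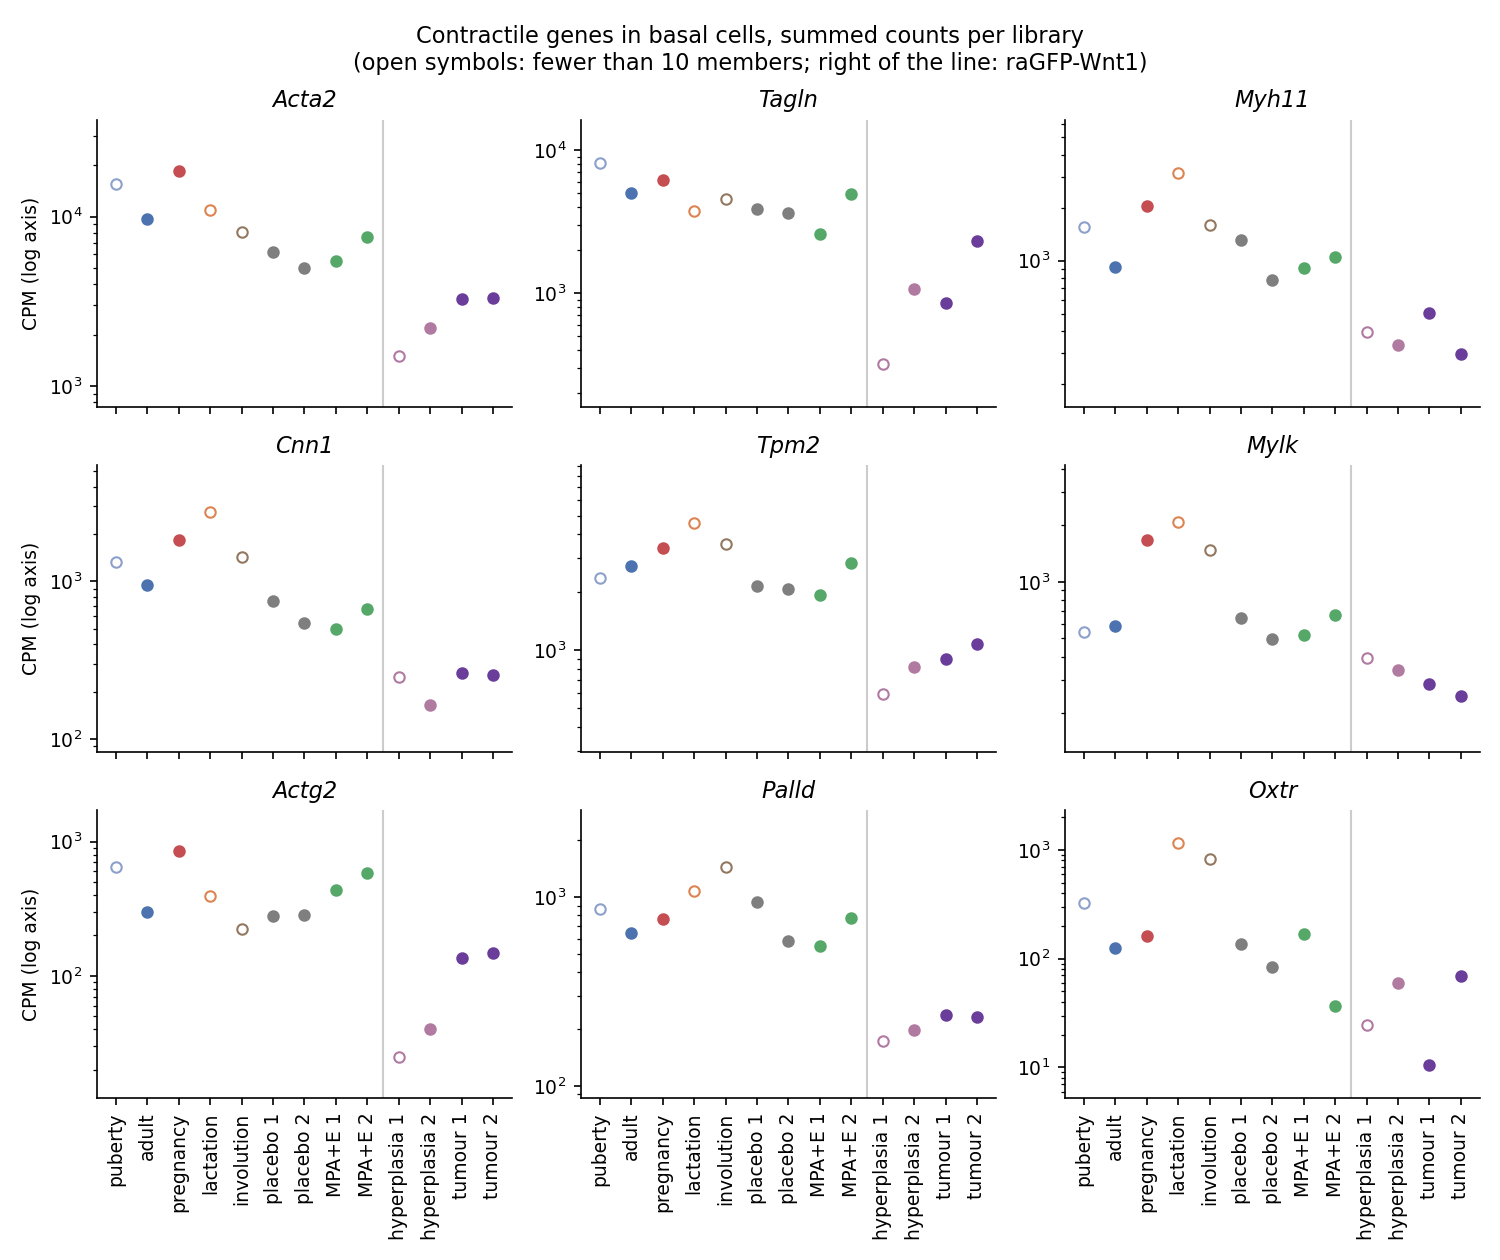
CPM (log axis) of 9 genes in the basal cells of each library, 1 point per library, open where it held fewer than 10 members, with raGFP-Wnt1 libraries right of the line. For Acta2, Tagln, Myh11, Cnn1, Tpm2, Mylk, Actg2 and Palld all 4 raGFP-Wnt1 points lie under all 9 wild-type points, while Oxtr (11 to 69 against 37 to 1149 CPM) overlaps.

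Because these genes shared a pattern across libraries, their promoters were searched for the CArG box. In the 250 bases before the start, RefSeq promoters (GRCm38.p6) of 16 of the 20 listed genes were matched by symbol, and 3 of the 16, Myl6, Myl9 and Vcl, held the exact box, as 1.62% of 27025 genes did. Of the 10 genes that separated the groups, 7 had a promoter in the table, and Myl6 was the 1 with an exact box, in 1 of its 2 promoters there. With 1 of the inner A or T bases allowed to be C or G, Acta2 joined them with a pair of boxes that begin 84 and 34 bases before its start, which makes 4 of 16, as 9.78% of all genes did. The box reads the same on both strands. Shown are the promoters of Acta2 and Myl6, which were lower in all 4 raGFP-Wnt1 libraries, and of Myl9, the regulatory light chain gene, which was higher in pregnancy, with boxes of either kind in capitals. They run 5′ to 3′ on the gene's strand up to the base before the start, at chr19:34255374-34255623 (minus strand), chr10:128493010-128493259 (minus strand) and chr2:156775214-156775463 (plus strand). A match is a description of letters and shows no binding.
Acta2: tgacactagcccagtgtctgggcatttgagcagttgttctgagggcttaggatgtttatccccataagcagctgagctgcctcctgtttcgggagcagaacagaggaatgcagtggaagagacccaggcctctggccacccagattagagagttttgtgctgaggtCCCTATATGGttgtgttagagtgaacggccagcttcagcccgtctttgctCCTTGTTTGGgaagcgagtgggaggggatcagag
Myl6: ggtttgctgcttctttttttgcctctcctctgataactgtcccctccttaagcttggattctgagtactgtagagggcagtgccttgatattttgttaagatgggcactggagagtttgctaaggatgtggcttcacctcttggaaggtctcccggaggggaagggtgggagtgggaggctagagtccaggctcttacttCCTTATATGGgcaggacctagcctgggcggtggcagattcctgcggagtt
Myl9: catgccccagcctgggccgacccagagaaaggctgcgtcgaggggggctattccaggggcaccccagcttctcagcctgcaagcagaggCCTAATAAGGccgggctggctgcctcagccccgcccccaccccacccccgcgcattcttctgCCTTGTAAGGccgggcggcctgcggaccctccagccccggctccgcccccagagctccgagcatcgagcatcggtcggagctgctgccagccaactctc

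Oxtr (chr6:112473683-112489943), the oxytocin receptor gene, was highest in lactation and involution among the stages. It stood at 1149 CPM in lactation (95% exact Poisson interval 835 to 1542) and at 830 CPM in involution (542 to 1216), against 161 CPM in pregnancy (146 to 178), 126 CPM in the adult (72 to 204) and 325 CPM in puberty (149 to 617). Lactation and involution were therefore the highest, and their intervals overlapped each other but no other stage except puberty, whose upper bound overlaps that of involution. Myh11, Cnn1 and Mylk were also at their highest in lactation, with 3158, 2741 and 2088 CPM, and Acta2 in pregnancy. Lactation rests on 9 cells and involution on 5. Without the 1 lactation member that held immune UMIs, Oxtr there was at 1518 CPM, and without the 1 such involution member it was at 941 CPM. Placebo 1 and 2 had 135 and 84.0 CPM and MPA+E 1 and 2 had 169 and 36.8 CPM, which overlapped. In raGFP-Wnt1 cells Oxtr was at 24.7, 60.0, 10.5 and 68.7 CPM.

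Several contractile genes were higher in the pregnancy than in the adult library by more than counting error. Acta2 was at 18644 CPM in pregnancy and 9725 CPM in the adult, a ratio of 1.92 (95% exact conditional interval 1.81 to 2.03). Mylk, the myosin light chain kinase that triggers contraction, was at 1678 against 582 CPM (ratio 2.88, 2.29 to 3.68). Actg2, the enteric smooth muscle actin, had a ratio of 2.86 (2.08 to 4.05), Myl9 2.55 (2.08 to 3.17) and Myh11 2.21 (1.84 to 2.68). Of 18 contractile genes with at least 20 UMIs in either library, 7 were at 2 times or more in pregnancy. Among all 8158 genes so filtered, 21.1% were. None of the 18 was at 0.5 times or less, where 8.38% of all genes were. The members held 2496970 UMIs in pregnancy and 127098 in the adult, so genes entered these counts mainly through pregnancy. Synpo2, 1 of the 7, was at 45.7 CPM in pregnancy and had no UMI in the adult, which allows up to 23.6 CPM (3 counts). The list's median ratio was 1.76, against 1.09 over all genes. In the joint fit, where the 1 pregnancy library is assumed to vary like the others, edgeR called 0 of 7592 genes between pregnancy and virgin glands (0%), with 563 at an unadjusted p under 0.05, and limma-voom 0 with 1133. Acta2 (log2 1.46, adjusted p = 0.364) and Mylk (1.58, 0.359) were among the genes that did not pass. The placebo libraries were below the adult in Acta2, with 6158 and 4986 CPM, and placebo 2 was at 6394 CPM with only the members that had Acta2.

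Collagen IV genes were higher in the pregnancy library. Col4a1 and Col4a2, the chains of collagen IV, were at 1364 and 738 CPM in pregnancy against 338 and 220 CPM in the adult (ratios 4.03, 2.99 to 5.58, and 3.35, 2.31 to 5.06). Fibroblasts had 1393 and 607 CPM in pregnancy against 811 and 321 CPM in the adult, and the part of their RNA in the members' values was not tested. Of 25 adhesion and basement membrane genes measured, 10 were at 2 times or more and 1 at 0.5 times or less, where 21.1% and 8.38% of all genes were. That 1 was Itgb4, the integrin chain of hemidesmosomes, at 10.4 against 78.7 CPM. Itga6, its partner chain, was at 509 against 291 CPM (1.75, 1.26 to 2.50). The collagen IV genes varied widely among the other libraries: Col4a1 was at 767 and 478 CPM in placebo, 1222 and 748 CPM in MPA+E, 49.3 and 62.3 CPM in hyperplasia, and 1384 and 278 CPM in the tumours. Both hyperplasia libraries lay under all others for Col4a1, and both tumours lay above them. No gene of the list passed the edgeR test in the raGFP-Wnt1 or the MPA+E comparison, of 27 and 25 tested. Over all genes, 0.119% passed each way in the first and 0.0205% in the second.

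With adult values under 3 UMIs set to 3, the largest ratio of pregnancy to adult belonged to Igfbp2, a binding protein of insulin-like growth factors, at 880 against 70.8 CPM (ratio 12.4, 6.54 to 27.2). Vcan, which encodes the proteoglycan versican, was at 191 CPM, Ntrk3, a neurotrophin receptor gene, at 159, Krt23, an epithelial keratin gene, at 157, Gm33651, a predicted gene, at 152, and Egr4, an immediate-early transcription factor gene, at 140 CPM. Each of these 5 had 1 or 2 UMIs in the adult library, so their intervals are wide, 4.35 to 963 for Vcan and 2.77 to 83.5 for Ntrk3. The adult library was below both placebo libraries for 4 of these 5. Placebo 1 and 2 had 100 and 79.3 CPM of Vcan, 55.2 and 35.9 CPM of Krt23, 75.2 and 46.1 CPM of Gm33651 and 110 and 71.1 CPM of Egr4, and pregnancy was above both for each. Ntrk3 was at 35.1 and 12.2 CPM. Igfbp2 was at 0 and 13.3 CPM in hyperplasia 1 and 2, and at 206 to 440 CPM in the hormone libraries. Fibroblasts had 302 and 292 CPM of Vcan in pregnancy and adult, and at most 15.4 CPM of Igfbp2 in these libraries. Nrg1, whose product neuregulin 1 signals to luminal cells, was at 540 CPM in pregnancy and 126 CPM in the adult (4.29, 2.63 to 7.52). It was at 181 CPM in placebo 1 and, with only the members that had Acta2, at 242 CPM in placebo 2. MPA+E 1 and 2 had 335 and 498 CPM of Nrg1 and tumour 1 had 462 CPM, closer to pregnancy than the adult was. Tumour 2 had 82.9 CPM and hyperplasia 1 and 2 had 0 and 11.7 CPM, with only the members that had Acta2, all below the adult.

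Lower in pregnancy were Slpi, a secreted inhibitor of leukocyte proteases, at 29.2 against 787 CPM (ratio 0.0372, 0.0271 to 0.0508), and Chil1, a chitinase-like gene, at 117 against 1180 CPM (0.0991, 0.0811 to 0.121). Ltbp2, a latent TGF-beta binding protein gene, Fabp4, the fatty acid carrier of adipocytes, Map1b, a microtubule-associated protein gene, and Id3, an inhibitor of differentiation, had ratios of 0.148 to 0.186. Fibroblasts had 308 and 311 CPM of Fabp4 in the 2 libraries. The adult members also held the highest endothelial marker sum of all libraries, 55.1 CPM against 13.6 CPM in pregnancy. The part of endothelial RNA in the adult Fabp4 value was not tested. The placebo libraries were not above pregnancy for Fabp4, at 0 and 172 CPM against 183 CPM in pregnancy and 1117 CPM in the adult. For Map1b they were at 25.1 and 51.5 CPM against 28.0 and 157 CPM. Slpi and Chil1 spread widely among the placebo libraries (Slpi 211 and 618 CPM, Chil1 747 and 379 CPM). The chemokine gene Cxcl14 was at 649 CPM in pregnancy against 2227 CPM in the adult (0.292, 0.257 to 0.332), and all other libraries but tumour 1 (801 CPM) had 1010 CPM or more. Pregnancy was thus the lowest of the 13 libraries for Cxcl14. Of 16 stress and dissociation genes, 5 were at 0.5 times or less, among them Socs3, Junb and Ier3, and none was at 2 times or more, where 8.38% and 21.1% of all genes were.

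Hormone receptor genes differed in level. Esr1 and Pgr, the estrogen and progesterone receptor genes, were at 0 to 29.1 CPM and 0 to 63.8 CPM over the 13 libraries, and Nr3c1, the glucocorticoid receptor gene, at 31.9 to 209 CPM. Esr1 in placebo 2, its highest library, was at 10.4 CPM with only the members that had Acta2. Igfbp5, an insulin-like growth factor binding protein gene, had the highest median level over libraries of the 28 genes in the list, at 281 CPM in tumour 1 to 4373 CPM in placebo 1. Greb1, a known estrogen target, passed in the raGFP-Wnt1 fit (log2 -4.84, SE 0.88, adjusted p = 0.0445), at 2.22, 2.63 and 0 CPM in hyperplasia 2, tumour 1 and tumour 2 against 23.6, 20.1 and 32.5 CPM in the adult and placebo libraries. In placebo 2 most of it lay in the cells without Acta2, with 105 CPM there and 12.2 CPM in the others, and 6 of 17 alternatives kept the call. Greb1 was also at 4.41 CPM in pregnancy and at 0 in puberty, lactation and involution, so it did not separate raGFP-Wnt1 from all wild-type libraries. The adult value of Greb1, 23.6 CPM, was 3 UMIs. Of the 21 genes of this list tested, Greb1 was the only one called, where 0.119% of all genes were called each way.

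Of the Wnt pathway genes, Wif1 and Axin2 had all 4 raGFP-Wnt1 libraries above all 9 wild-type ones, as 0.369% of all genes did. Wnt1 itself had 1 UMI, in tumour 2, and none in the members of the other 12 libraries. Whether the counting covers the transcript of the transgene is not given in the sources used here. Wif1 (chr10:121033960-121100650), which encodes a secreted inhibitor that binds Wnt ligands, was at 469 and 314 CPM in hyperplasia 1 and 2 and at 880 and 774 CPM in tumour 1 and 2. The wild-type libraries had 0 to 181 CPM, so all 4 lay above, and the fit gave a log2 fold change of 2.23 (SE 0.35, adjusted p = 0.0264, called in 10 of 17 alternatives). In fibroblasts of all 13 libraries Wif1 was at 2.75 CPM or less. Axin2, a feedback target of canonical Wnt signalling, was at 49.3, 24.5, 15.8 and 29.8 CPM against 0 to 14.2 CPM, which separated the groups but did not pass (adjusted p = 0.653). With only the members that had Acta2, placebo 2 was at 16.5 CPM and tumour 1 at 15.8 CPM, so Axin2 overlapped. The 49.3 CPM of hyperplasia 1 lay under the 74.0 CPM of 3 counts there. Wild-type libraries at 0 allow up to 108 CPM of Axin2 (3 counts, in puberty). Of 32 Wnt pathway genes tested, 22 had a positive and 10 a negative fold change, with a median of 0.71 against 0.04 over all genes, 1 was called higher and none lower, where 0.119% of all genes were called each way. Nkd2, another feedback inhibitor, was at 0, 17.8, 137 and 260 CPM against 0 to 72.2 CPM, high in the tumours only. Lgr6, the R-spondin receptor gene, was at 148 to 265 CPM against 0 to 150 CPM (log2 1.36, adjusted p = 0.168).

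The other genes called higher in raGFP-Wnt1 cells included Ptn, the growth factor pleiotrophin, at 789, 707, 3092 and 1158 CPM against 220 to 522 CPM (log2 2.43, SE 0.44, adjusted p = 0.0445). Apod, the lipocalin apolipoprotein D, was at 0, 35.6, 347 and 392 CPM against 0 to 36.1 CPM (log2 5.26, adjusted p = 0.0264). It was high in the tumours and not in the hyperplastic glands. Fibroblasts had 439 to 1906 CPM of Apod over all libraries, with 1358 and 1294 CPM in hyperplasia, and the part of their RNA was not tested. Gsta4, a glutathione transferase gene, and Atp6v1c2, a proton pump subunit gene, had log2 fold changes of 4.06 and 4.60. 1600014C10Rik, an uncharacterised gene, was at 148 to 260 CPM against 0 to 36.1 CPM and was called in all 17 alternatives (log2 4.68, SE 0.42, adjusted p = 0.000488). The predicted genes Gm10260, Gm11361 and Gm8797 were also called, with log2 fold changes of 6.75, 4.35 and 3.67. These 3 and Gsta4 were higher in the fibroblasts of the raGFP-Wnt1 libraries too, Gm10260 at 41.3 to 74.1 CPM against 0.362 to 2.17 CPM and Gsta4 at 2.72 to 12.7 CPM against 0.817 to 2.03 CPM, and strain and transgene cannot be told apart here. 1600014C10Rik was at 3.65 to 8.36 CPM in fibroblasts of all libraries. Predicted genes can share sequence with close copies, so their own levels are uncertain.

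Called lower beside Cnn1, Palld and Greb1 were Clca3a2 and Clca3a1, neighbouring genes of the chloride channel accessory family. Clca3a2 was at 0, 44.5, 15.8 and 13.9 CPM against 173 to 449 CPM (log2 -3.14, SE 0.45, adjusted p = 0.0169), and Clca3a1 at 24.7, 4.45, 2.63 and 1.44 CPM against 20.3 to 191 CPM (log2 -3.67, adjusted p = 0.0445). The 2 genes are close relatives and reads may be shared between them. Fmod, the small proteoglycan fibromodulin (log2 -2.74), Pbxip1, a gene of a PBX-binding protein (-2.01), and Fam129a (-1.74) were also among the 9. The number of calls depended on single libraries. It was 89 without hyperplasia 2 and 35 without tumour 1, and it was 5 without tumour 2, placebo 1 or MPA+E 1, 4 without MPA+E 2, 3 without the adult and 1 without placebo 2. With only the members that had Acta2 it was 34. Hyperplasia 2 and tumour 2 share a mouse, so the 3 libraries stand for 2 animals. Of the 16 stress genes, 14 moved upward in this comparison, with a median log2 fold change of 0.57 over the list. None was called, where 0.119% of all genes were called each way. The part of the stress genes in the comparison was not tested.

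**Figure D4:**
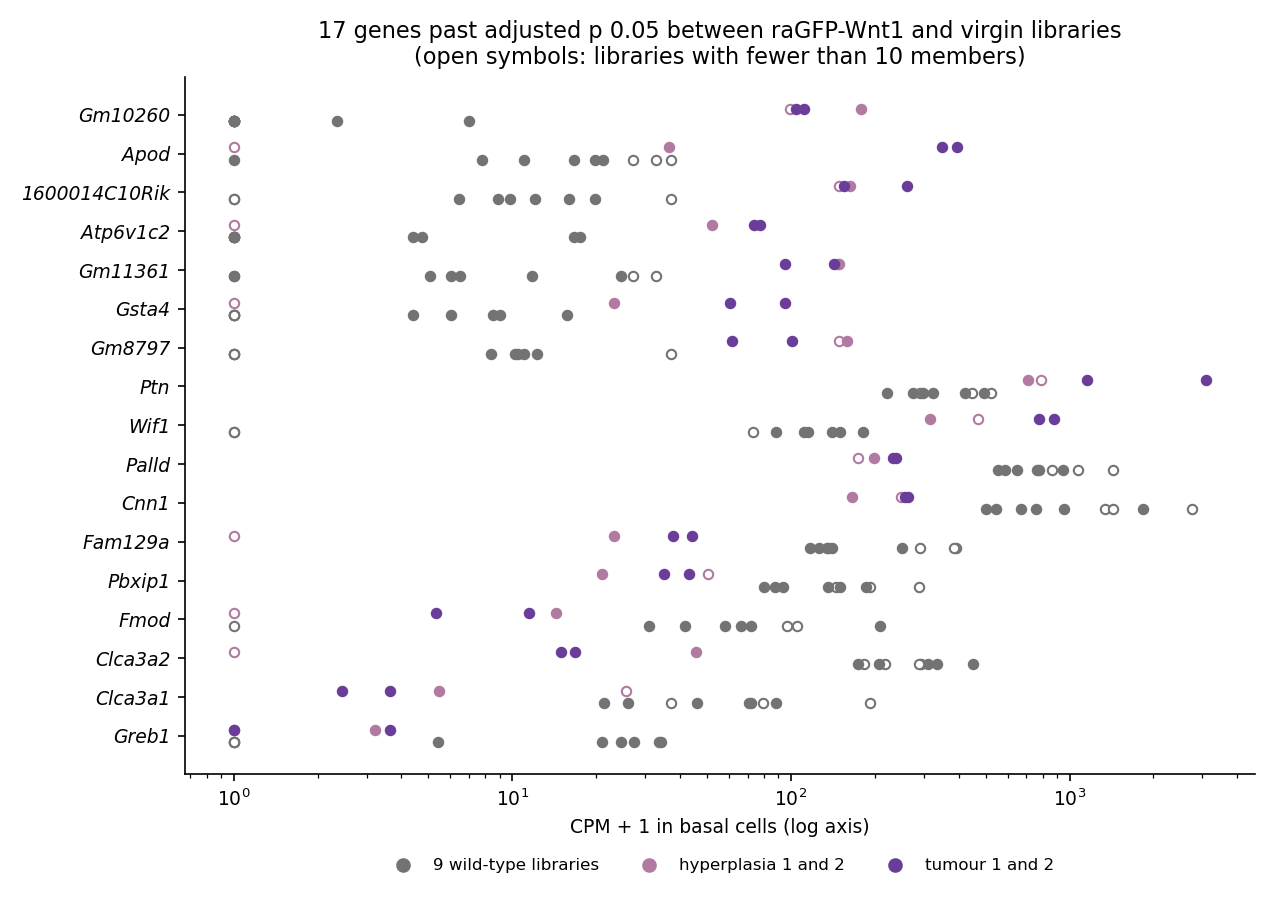
CPM + 1 (log axis) of 17 of the 18 genes past an adjusted p of 0.05 between raGFP-Wnt1 and virgin libraries, 1 point per library, grey for the 9 wild-type libraries and coloured for hyperplasia and tumour, open where a library held fewer than 10 members. Cnn1, Palld, Clca3a2, Pbxip1 and Fam129a have all coloured points left of the grey, and Ptn, Wif1, 1600014C10Rik, Gm10260, Gm11361 and Gm8797 have all of them to the right.

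Few genes of basal cells differed between MPA+E and placebo beyond the spread between libraries. In edgeR's quasi-likelihood test, 1 of 4873 genes passed (0.0205%), with 212 at an unadjusted p under 0.05. It was Gpx3, the secreted glutathione peroxidase, at 0 and 4.74 CPM under placebo and at 90.2 and 103 CPM under MPA+E (log2 4.4, SE 0.53, adjusted p = 0.0378). The 0 in placebo 1 allows up to 15.0 CPM (3 counts). Gpx3 was also higher in the fibroblasts of the MPA+E libraries, at 2541 and 2394 CPM against 554 and 637 CPM. The part of free RNA from fibroblasts in this result was not tested. DESeq2 called 1 gene, limma-voom and the fit with the replicate number as a block called 0, and without placebo 1, placebo 2, MPA+E 1 or MPA+E 2 edgeR called 94, 42, 8 and 1.

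Isg15 and Bst2, both interferon-inducible, were higher in both MPA+E libraries without passing the test. Isg15, a ubiquitin-like interferon product, was at 10.0 and 5.42 CPM under placebo and at 52.6 and 276 CPM under MPA+E (adjusted p = 0.250). Bst2, which encodes the antiviral tetherin, was at 15.0 and 15.6 against 30.1 and 107 CPM (adjusted p = 0.599). Of 15 genes tested in the list of cytokines, chemokines and interferon genes, 7 had both MPA+E libraries above both placebo libraries, where 19.2% of all genes did. Beside Isg15 and Bst2 these included Csf1, B2m, H2-K1 and H2-D1. Cxcl1 and Cxcl14 had both below, where 11.6% did. MPA+E 2 was the highest of the 13 libraries for Isg15 and Ifit1. Fibroblasts of the same libraries had Isg15 at 201 and 166 CPM under placebo and 959 and 952 CPM under MPA+E.

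Cycling genes were unevenly spread. Mki67 was at 143 CPM in MPA+E 1 and 89.3 CPM in tumour 1, and at 31.9 CPM or less in the other 11 libraries, and Top2a at 237 and 131 CPM in these libraries against 37.5 CPM or less. MPA+E 1 rests on 17 cells and tumour 1 on 21. No proliferation gene was called in the MPA+E or raGFP-Wnt1 comparison, of 16 and 26 tested. Over all genes, 0.0205% were called in the first and 0.119% each way in the second, so lists of this size would seldom hold a call. Ccnd1, cyclin D1, was at 229 and 122 CPM in the tumours, 24.7 and 2.22 CPM in hyperplasia, 94.0 and 82.7 CPM in MPA+E and 20.1 and 37.3 CPM in placebo. The tumours were the highest of all libraries for it, though with only the members that had Acta2 tumour 2 was at 72.5 CPM, below both MPA+E libraries. Both MPA+E libraries lay above both placebo libraries.

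The hormone response of basal cells was set against that of fibroblasts in the same libraries, with the library as a term. Of 15032 genes, 110 (0.732%) differed in their response in edgeR's test, 48 with a higher and 62 with a lower change in basal cells. The test fitted 1 spread per gene to both kinds of cells, from sums of 14 to 111 basal cells and 4578 to 7848 fibroblasts. Its p-values therefore do not measure the spread between the basal cell sums alone. The MPA+E test of basal cells alone covered 4873 genes, so many of the 15032 entered through fibroblasts. Greb1 was at 6.15 and 6.79 CPM in placebo and 103 and 89.3 CPM in MPA+E fibroblasts, and in basal cells at 20.1 and 32.5 CPM under placebo and 26.3 and 33.1 CPM under MPA+E (difference of log2 changes -3.89, SE 0.45, adjusted p = 4.5e-14). With only the members that had Acta2, placebo 2 was at 12.2 CPM, the arms did not overlap and the difference was -2.69 (adjusted p = 0.000592). Without placebo 2 its adjusted p was 0.258. Pgr was at 9.53 and 13.3 CPM in placebo and 40.1 and 61.1 CPM in MPA+E fibroblasts, and at 10.0, 20.3, 22.6 and 9.19 CPM in basal cells (difference -2.56, SE 0.59, adjusted p = 0.00336). Placebo 2 was at 9.56 CPM with only the members that had Acta2, where the call was lost (adjusted p = 0.729), as it was without placebo 2 (1.0) or MPA+E 2 (0.910). Igfbp5 was at 2351 and 2117 CPM in placebo and 298 and 536 CPM in MPA+E fibroblasts, and at 4373, 2202, 1263 and 1769 CPM in basal cells (difference 1.36, adjusted p = 0.00502, and 1.0 without placebo 2 or 0.0552 without MPA+E 1).

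Among the largest differences upward were Iigp1, an interferon-inducible GTPase gene (0, 0.677, 18.8 and 206 CPM in basal cells of placebo 1, placebo 2, MPA+E 1 and MPA+E 2, difference 6.33, SE 0.76, adjusted p = 3.29e-13), and Rtp4, also interferon-inducible (0, 0.677, 7.52 and 71.7 CPM, adjusted p = 2.11e-05). Both lost the call without MPA+E 2 (adjusted p = 0.435 and 1.0). Ntrk3 and Lrrc8d, an anion channel subunit gene, had differences of 3.97 and 3.32, and Rtp4, Ntrk3 and Lrrc8d lost the call without placebo 2. Krt19, a keratin gene, was at 10.0, 27.8, 33.8 and 57.0 CPM in basal cells and went from 28.7 and 24.8 CPM to 4.86 and 4.38 CPM in fibroblasts (difference 3.39, SE 0.52, adjusted p = 8.83e-08, and 0.0755 without MPA+E 2). Downward, Lgr6 was at 150 and 61.6 CPM under placebo and 56.4 and 44.1 CPM under MPA+E in basal cells. In fibroblasts it was at 0.0146 and 0.0292 CPM under placebo and 0.942 and 0.712 CPM under MPA+E, so its difference of -6.08, called in all 10 alternatives, is set against fibroblast levels near 0. Coch, a gene of a secreted matrix protein, went from 35.1 and 26.4 CPM to 0 and 0, which allows up to 11.3 and 5.52 CPM, and lost the call without placebo 1, placebo 2 or MPA+E 2.

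The calls of the other downward genes were lost without placebo 2. Lgals3, galectin-3, was at 260 CPM in placebo 2 and 5.02 CPM in placebo 1, against 3.76 and 7.35 CPM under MPA+E, and 997 CPM in the placebo 2 cells without Acta2. Anxa8, an epithelial annexin gene, was at 77.2 CPM in placebo 2 and at 0 in the other 3, and Sbsn, an epidermal gene, at 10.0 and 22.4 CPM in placebo 1 and 2 and 0 and 3.68 CPM under MPA+E. For Sbsn the difference stayed at -2.37 or below in all 10 alternatives, of which 7 kept the call. Without placebo 2 these 3 had adjusted p = 1.0, and the count of genes fell from 110 to 29. With only the members that had Acta2, 100 genes differed, 62 upward and 38 downward, so the split between the directions turned.

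**Figure D5:**
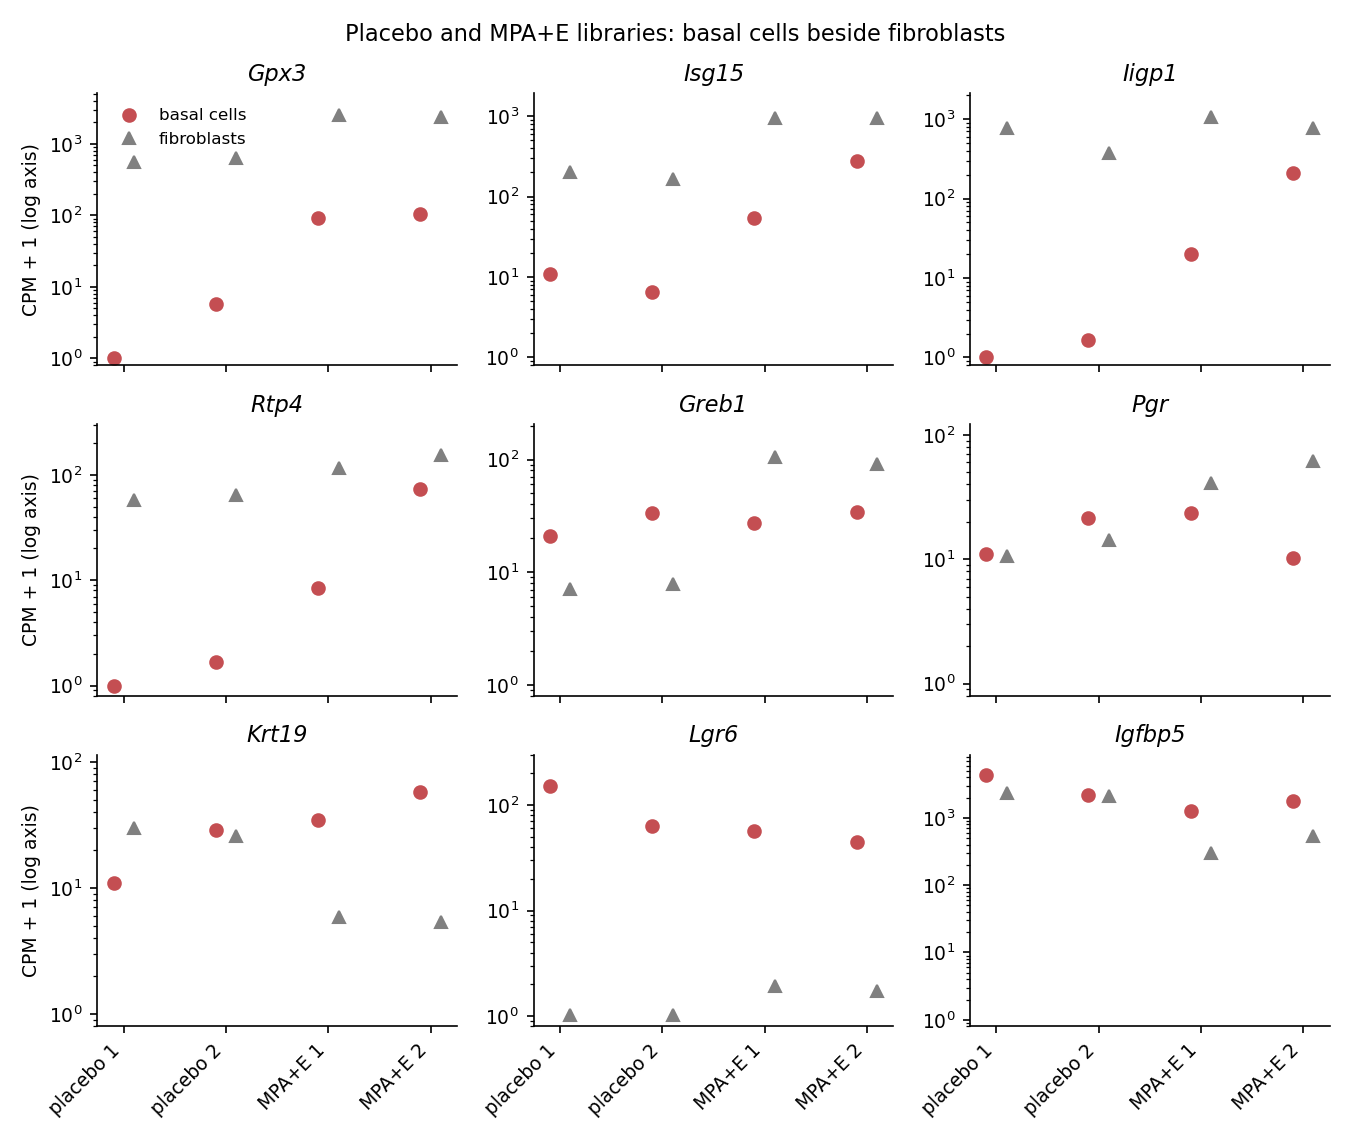
CPM + 1 (log axis) of 9 genes in basal cells (circles) and fibroblasts (triangles) of the 2 placebo and 2 MPA+E libraries. Greb1 and Pgr are higher under MPA+E in fibroblasts and overlap in basal cells, Greb1 only with the placebo 2 cells that lacked Acta2 included, while both MPA+E libraries lie above both placebo libraries for Gpx3 and Isg15 in both kinds of cells.

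Milk gene RNA was found in the lactation members. Wap, the whey acidic protein, was at 2898 CPM there, Csn2, beta-casein, at 1305 CPM and Csn1s2a at 1122 CPM, and all 9 members held milk UMIs. Without the member that held immune UMIs, Wap was at 2001 CPM and Csn2 at 793 CPM. Fibroblasts of the same library had 212, 164 and 122 CPM. In pregnancy the members had 38.0 CPM of Csn2 and the fibroblasts 42.4 CPM. Csn3, kappa-casein, was at 24.8 CPM in the pregnancy members against 8.63 CPM in fibroblasts, and at 184 CPM in MPA+E 1 members against 0.0116 CPM. Of the 17 members of MPA+E 1, 5 held milk UMIs. In MPA+E 2 members Csn3 was at 12.9 CPM and in placebo 1 members at 5.02 CPM, so the 184 CPM rests on 1 library. Lcn2, lipocalin 2, an iron-binding antibacterial protein found also outside milk, was abundant in every library, from 271 CPM in hyperplasia 1 to 3769 CPM in the adult.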

How the data were processed

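The authors deposited filtered raw UMI counts per gene and barcode without normalization (10x 3′ kit; Cell Ranger 6.1.2 and mm10 per the submitters' processing notes). Members and gene lists were chosen with earlier results of these data known. Counts were summed over the members of each library, since cells are not replicates. edgeR 4.0.16 (quasi-likelihood, TMM, filterByExpr, Benjamini-Hochberg adjustment, threshold 0.05) was run on libraries with at least 10 members, in R 4.3.3. The planned limma-voom fits of hyperplasia and tumour were not made, since puberty and hyperplasia 1 held fewer members, and were run with every library only as an alternative added later (limma 3.58.1; DESeq2 1.42.0 was another alternative). Shares were compared by exact permutation over libraries (scipy 1.17.1). Fits were tested on simulated data. Intervals and floors of 3 counts cover counting error only. P-values measure the spread between these libraries, except in the comparison with fibroblasts, where 1 spread per gene was shared by both kinds of cells. Doublets were kept, and removing those with the highest Scrublet scores (scanpy 1.11.5) was an alternative. Tumour and hyperplasia of 1 number share a mouse (correlation of deviations 0.0954 over 5100 genes). Named genes were the listed ones and up to 6 of the largest called changes each way with at least 20 UMIs and groups that did not overlap, or the 6 largest ratios each way between pregnancy and adult. Some genes that met this rule are not reported here.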

Additional observations from a re-analysis of the deposited data

Results flagged for a closer look

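The share of basal cells in tumour 2, 4.17%, stood apart from the other 3 raGFP-Wnt1 libraries, and that in pregnancy, 4.41%, from the other 8 wild-type libraries. Cnn1 in hyperplasia 2, at 165 CPM, lay below the other 3 raGFP-Wnt1 libraries, which had 247 to 263 CPM. These 3 came from 12 such comparisons of 1 library with its group, by a Dixon test of the gap to the next library. Chance gives about 1 in 20 only where values are normally distributed. The shares and CPM were taken on their plain scale, and whether they are so distributed was not tested.

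For 11 of the genes with the largest differences, edgeR called a difference between the MPA+E change in basal cells and that in fibroblasts. Both kinds of cells came from the same libraries, and the test shared 1 spread per gene between them. Lgr6 alone kept its call in all 10 alternatives, against fibroblast levels near 0, and the others kept theirs in 6 to 9. The change was higher in basal cells, on the log2 scale, by 6.33 for Iigp1, 4.95 for Rtp4, 3.97 for Ntrk3, 3.39 for Krt19 and 3.32 for Lrrc8d. The differences were -16.15 for Anxa8, -14.66 for Coch, -6.08 for Lgr6, -5.69 for Lgals3, -3.89 for Greb1 and -3.49 for Sbsn. Those of Anxa8 and Coch are fitted against 0 UMIs in both MPA+E libraries and give no size. Iigp1 and Rtp4 were each at 0 and 0.677 CPM in placebo 1 and 2 members. These values lie under the 15.0 and 2.03 CPM of 3 counts there, so the size of both differences is uncertain. Fibroblasts of the hormone libraries had 379 to 1051 CPM of Iigp1 and 56.3 to 152 CPM of Rtp4. Anxa8 and Lgals3 were mostly in the placebo 2 cells without Acta2, at 289 and 997 CPM against 17.4 and 52.1 CPM in the others of that library.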

How the results depend on the processing

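Without single libraries the share differences ran from -1.28 to 0.168 for MPA+E minus placebo, -0.101 to 3.85 for tumour minus hyperplasia and -0.567 to 0.849 for raGFP-Wnt1 minus wild type, in percentage points. They turned to 0.168 without placebo 2, and to -0.101 and -0.567 without tumour 2. Within pairs of the same number, the replicate block of the shares, the mean differences equal the pooled ones, -0.556 and 1.88 points.

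For MPA+E against placebo, thinning gave 5 called genes, no filter on low counts 86, limma-voom 0 and the replicate block 0. Leaving out 1 library gave 1 to 94, and with only members that had Acta2, chosen after seeing the data, 8 to 98 (42 without placebo 2 and 38 without MPA+E 1). The same-numbered hormone libraries correlated at 0.167 over 4873 genes, and nothing in the labels ties the numbers to shared animals. The comparison with fibroblasts gave 29 to 115 genes without single libraries. Pregnancy against virgin gave 1 gene with only members that had Acta2 and 178 without a filter, against 0 without each single library. raGFP-Wnt1 against virgin gave 33 without members holding Krt10, Krt1 or Krtdap UMIs, 34 with only those that had Acta2, 271 without a filter, 29 in limma-voom and 1 to 89 without single libraries.

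Fitted with every library, limma-voom called 3 genes between hyperplasia and normal and 94 between tumour and hyperplasia. The first was 0 at a 5% mitochondrial limit, 32 in edgeR, 25 without a filter and 0 to 134 without single libraries. The second was 30 without skin-marker members, 21 at the 5% limit, 202 without a filter, 5 to 415 without single libraries and 364 with mouse as the replicate block. The ratio of pregnancy to adult for Acta2 was 2.04 thinned and 2.39 at the 5% limit, and that for Cxcl14 was 0.253 at the 5% limit. The cause of these changes was not tested. Among the named genes, 39 results under 566 alternatives kept their direction, 426 of them on the same side of the threshold, while 119 lost and 21 gained the call. The MPA+E fits without skin-marker members, at the 5% limit and with at least 30 members per library were not run, since libraries fell below the minimum. Few members limit puberty, lactation, involution and hyperplasia 1, where 3 counts equal 74.0 to 108 CPM.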
